A study of Mus musculus with 16 samples.

Results

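The comparison described here sets all primed cultures of mouse neural crest stem cells against unprimed cells, and the genes it is about are those that moved alike in each kind of priming. RNA of 16 samples was measured on Affymetrix mouse expression arrays, 4 arrays in each of 4 groups. The primed groups were glia-primed cells, neuron-primed cells (titled autonomic in the labels) and mesenchyme-primed cells, each exposed to instructive growth factors, and the fourth group was unprimed, migratory neural crest stem cells. All cells were described as mouse primary material grown in neural crest stem cell medium, so that medium was common to the primed groups and their control. Which factor each primed group received, and for how long, is not given in the sources used here, nor are the strain and stage of the embryos. Nothing in the labels says that the arrays of a group came from separate cultures or animals, so the p-values measure the spread between these arrays, which may be technical. Members were chosen in 2 steps. A gene first had to differ between the mean of the 3 primed group means and the unprimed mean at a Benjamini-Hochberg adjusted p under 0.05 in limma, a linear model fitted across all genes. Its log2 change against unprimed cells then had to have the same sign in all 3 primed groups, with the smallest of the 3 changes at least 0.5 of the largest. Of 18194 genes measured, 81 passed the first step and 48 of those passed the second. These values chose the members, and the 3 changes of a gene share the same unprimed arrays, so the sizes, the p-values and the likeness given for the 48 genes are a description of the choice.

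Neural crest cells leave the dorsal neural tube and give rise to peripheral glia, autonomic and sensory neurons, pigment cells and, in the head, bone, cartilage and smooth muscle. Stem cells isolated from migrating crest can be steered in culture by single extracellular factors. Neuregulins favour glia, bone morphogenetic proteins favour autonomic neurons, and transforming growth factor beta (TGF-beta) favours smooth muscle-like mesenchyme. TGF-beta signals through SMAD proteins, which also switch on inhibitors of the same pathway. Proliferating progenitors make the enzymes that copy DNA, and progenitors of the early embryonic axis are marked by transcription factors of their own.

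The promoters of 5 members are printed here as examples and do not represent the 48. Spsb1 and Sipa1l2 are among the genes that rose, and Pola1, Tk1 and Pclaf among those that fell. They were picked after the values had been seen, from members with a promoter entry in the RefSeq table of build GRCm38.p6, which held 45 entries for 35 of the 48 members. Each run is the 250 bases before the start of transcription, 5′ to 3′ on the gene's strand. Capitals mark matches on either strand to a CCAAT box (CCAAT), a GC box (GGCGGG) or an E2F-type site (TTTGGCGC, TTTCGCGC or TTTCCCGC), none of which overlap here. The Spsb1 window is chr4:149955007-149955256 on the minus strand and holds 4 GC boxes and 1 E2F-type match.
Spsb1: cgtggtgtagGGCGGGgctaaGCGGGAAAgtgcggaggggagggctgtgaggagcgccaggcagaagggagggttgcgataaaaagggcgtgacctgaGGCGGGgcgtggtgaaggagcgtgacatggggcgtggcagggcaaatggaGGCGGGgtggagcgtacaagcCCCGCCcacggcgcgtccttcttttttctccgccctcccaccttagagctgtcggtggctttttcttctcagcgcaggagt
The Sipa1l2 window is chr8:125569864-125570113 on the minus strand, the one further upstream of 2 entries for the gene. It holds 4 CCAAT boxes and 3 GC boxes, laid out in repeated units.
Sipa1l2: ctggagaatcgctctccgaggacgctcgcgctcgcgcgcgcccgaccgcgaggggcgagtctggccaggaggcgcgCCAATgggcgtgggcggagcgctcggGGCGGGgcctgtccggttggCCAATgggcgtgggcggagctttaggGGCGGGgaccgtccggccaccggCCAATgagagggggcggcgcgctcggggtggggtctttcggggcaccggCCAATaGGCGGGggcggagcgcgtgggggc
The Pola1 window is chrX:93632156-93632405 on the minus strand and holds 1 match to each motif.
Pola1: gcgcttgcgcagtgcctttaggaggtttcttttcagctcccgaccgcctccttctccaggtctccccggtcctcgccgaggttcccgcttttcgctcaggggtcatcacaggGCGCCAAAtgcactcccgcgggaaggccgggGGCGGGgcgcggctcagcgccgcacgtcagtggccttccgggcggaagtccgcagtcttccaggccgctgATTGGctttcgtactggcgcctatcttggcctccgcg
The Tk1 window is chr11:117826015-117826264 on the minus strand, and these letters occur nowhere in it.
Tk1: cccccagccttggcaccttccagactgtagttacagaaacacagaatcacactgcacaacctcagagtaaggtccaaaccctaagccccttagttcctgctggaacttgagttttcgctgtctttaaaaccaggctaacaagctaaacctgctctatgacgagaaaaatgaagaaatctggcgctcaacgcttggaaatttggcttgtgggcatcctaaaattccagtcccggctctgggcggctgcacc
The Pclaf window is chr9:65890073-65890322 on the plus strand and holds 2 CCAAT boxes.
Pclaf: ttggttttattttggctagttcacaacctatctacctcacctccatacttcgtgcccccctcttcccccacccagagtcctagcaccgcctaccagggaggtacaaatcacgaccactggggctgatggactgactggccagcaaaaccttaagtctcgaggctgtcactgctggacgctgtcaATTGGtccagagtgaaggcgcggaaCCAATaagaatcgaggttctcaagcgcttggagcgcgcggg
Among the 45 promoter entries of members, 14 (31.1%) held a CCAAT box, against 33.8% of all 32851 entries of the table. A GC box lay in 28 (62.2%) of the member entries, against 32.5% of all entries, and an E2F-type match in 2 (4.44%), against 1.53%. Those 2 entries, of Spsb1 and Pola1, are both printed above. At least 4 CCAAT boxes, as in the Sipa1l2 window, occurred in 0.84% of all entries, and at least 4 GC boxes, as in the Spsb1 window, in 3.89%. Of the 48 members, 29 lay in the brightest of 4 equal bins of genes, and entries of equally bright genes were not compared. The matches are a description of the letters and say nothing of binding.

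The arrays were alike in brightness, with medians over all probe sets of 3.05 to 3.15 on the log2 intensity scale. The first principal component, which held 14.4% of the variance, did not part primed from unprimed arrays. The glia-primed arrays and neuron-primed arrays 2 to 4 scored 19.4 to 57.3 on it, neuron-primed array 1 scored -39.7 and the mesenchyme-primed arrays -24.8 to -8.02, against -49.6 to -21.2 for the unprimed arrays. Neuron-primed array 1 and mesenchyme-primed array 3 thus lay within the unprimed range. Neuron-primed array 1 also had the lowest level of Sox10, a transcription factor that defines crest and its glia. It was likewise the lowest of the 16 arrays for the crest genes Foxd3 (2.81), Tfap2a (4.39), Ets1 (5.18), Erbb3 (6.04) and Ngfr (5.57), but not for Sox9 (6.57). Sox10 read 6.80, 8.39, 7.28 and 7.90 on the glia-primed arrays, 4.30, 8.07, 8.27 and 8.25 on the neuron-primed arrays and 8.91, 9.63, 8.50 and 8.33 on the mesenchyme-primed arrays, against 8.74, 7.85, 8.39 and 6.44 on the unprimed arrays. Its mean change was 0.03 ± 0.63 (SE), adjusted p = 0.991, and the marker was well above the array medians on all arrays but neuron-primed array 1. Of the 26 measured crest progenitor genes, 13 higher and 13 lower in the mean, 0 passed limma's test and 10 had an unadjusted p under 0.05. An F test that compares the 3 primed groups called 3 of the 26. Ngfr was among these, with an F test adjusted p of 0.0055. By limma's test of each group it changed by -1.87 in the glia-primed (adjusted p = 0.0479), -2.75 in the neuron-primed (adjusted p = 0.00554) and 0.32 in the mesenchyme-primed group (adjusted p = 0.891). The Gapdh control probe sets, whose 3′ to 5′ ratio is read as a sign of RNA length, differed between the groups. The log2 ratio was 2.92 ± 0.27 over the primed arrays (range 2.44 to 3.33), against 2.35 ± 0.19 over the unprimed arrays (range 2.20 to 2.58; SD, n = 12 and 4). The beta-actin ratio overlapped between them, at -0.92 to -0.07 on the primed and -0.70 to -0.40 on the unprimed arrays. Xist, transcribed from an inactive X chromosome and so a sign of the sex of the embryos, varied widely, from 2.61 to 11.22 on the primed and 6.39 to 10.53 on the unprimed arrays. Genes of the central nervous system progenitors that lie next to the crest averaged 2.74 to 5.002 on the primed arrays, against 3.05 to 5.52 on the unprimed arrays, over 11 genes of which 0 passed limma's test and 1 had an unadjusted p under 0.05. Of these 11 genes 10 had a negative mean change, with a median of -0.56, or -0.79, -0.34 and -0.34 in the glia-, neuron- and mesenchyme-primed cells, and without unprimed array 4 the median was 0.05. Skeletal muscle, endothelial, blood, epidermal and melanocyte markers had 0 genes past limma's test among 12, 12, 11, 12 and 10, and 0, 0, 1, 0 and 1 at an unadjusted p under 0.05, with mean levels of at most 4.18 on any array. The part of cell makeup and RNA length in the results was not tested apart from the covariate fits given below.

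In the mean of the 3 primed groups, 81 genes (0.445% of those tested) were called, 22 higher (0.121%) and 59 lower (0.324%) than in unprimed cells. The 48 that moved alike (0.264%) comprised 15 that rose and 33 that fell. The split of calls depended on how the arrays were scaled. Cyclic loess normalization gave 20 higher and 23 lower, and centring on housekeeping genes gave 28 higher and 14 lower, with the median gene at 0.19 on the log2 scale in place of 0.01. Each of the 48 members kept its direction in all 3 groups under both scalings and under median centring, but that direction was part of their choice, so nothing is read from it. At an unadjusted p under 0.05, 1847 genes (10.2%) passed. The rises were the larger movements, with a median log2 change of 1.98 among the 15 and -1.23 among the 33. The genes that rose started from a median level of 4.64 in unprimed cells, and those that fell from 8.21. In bulk RNA of this kind, fewer cells that express a gene and less RNA per cell cannot be told apart.

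**Figure D1:**
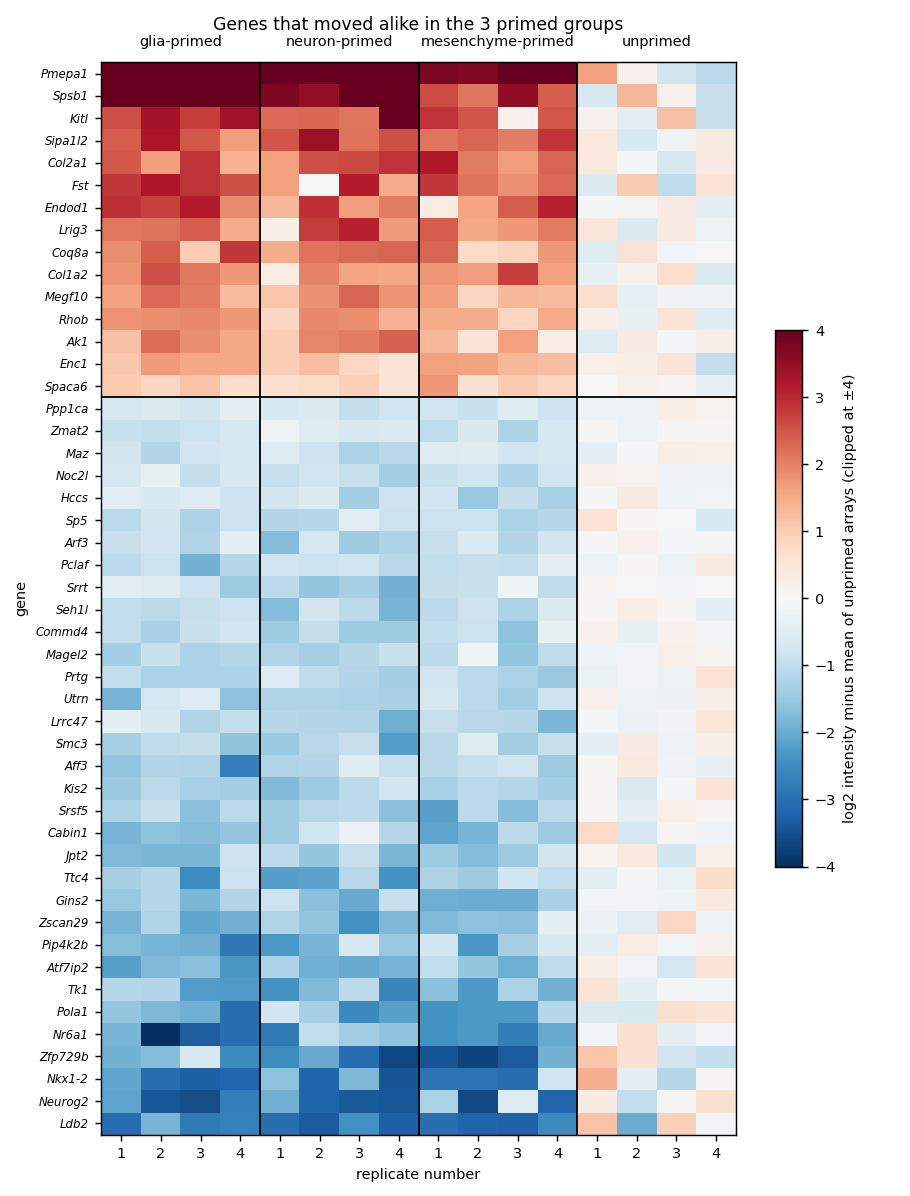
Level of the 48 genes that moved alike on each of the 16 arrays, as log2 intensity minus the mean of the unprimed arrays, with glia-, neuron- and mesenchyme-primed arrays to the left of the unprimed ones and each column one replicate. The 15 genes that rose lie above the horizontal line and the 33 that fell below it, and colours are clipped at 4 log2 units either way.

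The members' arrays did not overlap, 12 primed against 4 unprimed, for 34 of the 48 genes, 9 that rose and 25 that fell. Over all genes this held for 106 (0.583%), 32 higher (0.176%) and 74 lower (0.407%), and since the members were chosen on this contrast nothing is read from the count. On 11 of the 12 primed arrays all 15 rises and all 33 falls had the direction of their mean, and on neuron-primed array 2 the only exception was Fst. The median departure of the 15 rises from the unprimed mean was smallest on neuron-primed array 1, at 1.33, and largest on glia-primed array 2, at 2.42. For the 33 falls it ran from -1.01 on mesenchyme-primed array 4 to -1.52 on neuron-primed array 4. Unprimed array 4 was the unprimed array farthest from the primed ones for 18 of the 48 genes.

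Single arrays decided how many genes were called. Leaving out unprimed array 1, 2, 3 or 4 left 24, 27, 44 or 11 genes called and 15, 19, 29 or 5 alike. Of these, array 4 was the one lowest in Sox10. Without glia-primed array 1, 2 or 3 the counts were 51, 36 or 41 called and 26, 21 or 23 alike. Without neuron-primed array 1, the one lowest in Sox10, they were 171 called and 77 alike, and without neuron-primed array 4 they were 37 and 24. Without mesenchyme-primed array 1, 2 or 3 they were 33, 44 or 41 called and 19, 25 or 24 alike. Each of the 48 members kept its direction in all 3 groups whichever array was left out, but they were chosen for that direction on these same arrays, so nothing is read from it. Pmepa1, Spsb1, Sipa1l2 and Col2a1 were called without any one of the 16 arrays, 16 members lost the call without 1 to 7 of them, and 28 lost it without 8 or more. With the Gapdh ratio as a covariate 6 genes were called, Pmepa1, Spsb1 and Coq8a among the 48. Pmepa1 and Coq8a then still met the rule for moving alike and Spsb1 did not, and the other gene that met it was Pja2, which is not a member. All 48 kept their direction, for which they had been chosen, with a median change 0.97 times that without the covariate.

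**Figure D2:**
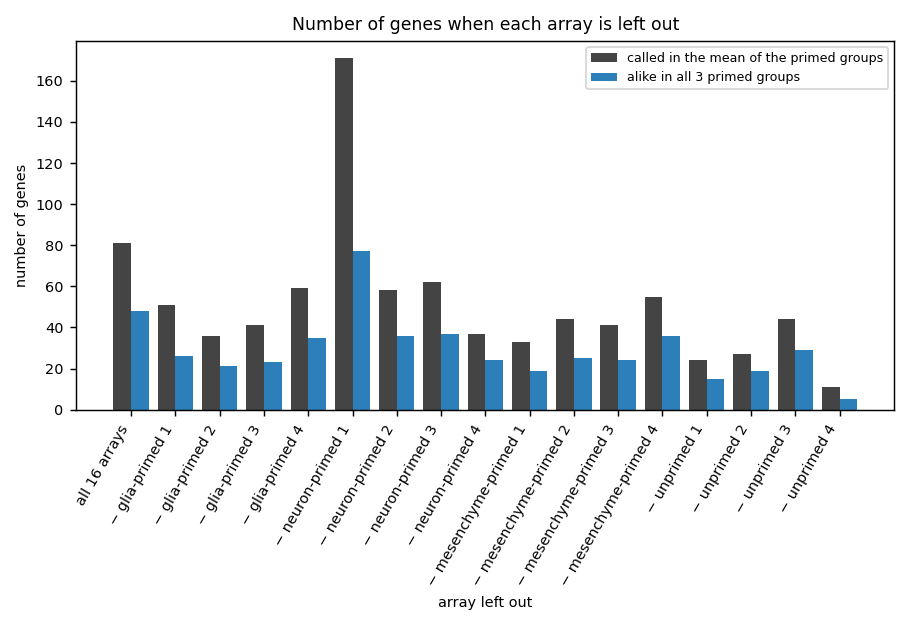
Number of genes called in the mean of the primed groups (dark bars) and of genes alike in all 3 primed groups (blue bars) with all 16 arrays and with each array left out. The bars range from 11 called and 5 alike without unprimed array 4 to 171 called and 77 alike without neuron-primed array 1.

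The largest shared rises, in Pmepa1 and Spsb1, were both on the list of TGF-beta response genes, which was written with these results known. Pmepa1 encodes a membrane protein that is induced by TGF-beta and holds back its SMAD proteins. Its log2 intensity was 8.66, 9.45, 9.17 and 9.44 on the glia-primed arrays, 8.01, 9.45, 9.06 and 9.59 on the neuron-primed arrays and 7.54, 7.50, 8.26 and 9.04 on the mesenchyme-primed arrays, against 5.43, 3.95, 3.05 and 2.71 on the unprimed arrays. Every primed array lay above every unprimed array, and the mean change was 4.98 ± 0.44 (SE), adjusted p = 0.000128. The change was 5.40 in the glia-primed, 5.24 in the neuron-primed and 4.30 in the mesenchyme-primed group. The glia-primed arrays exceeded the mesenchyme-primed ones by 1.09 (95% interval -0.05 to 2.24), an interval that reaches 0. Unprimed arrays 3 and 4, at 3.05 and 2.71, lay at or below the array medians of 3.05 to 3.15, and with no detection calls in the files no linear fold is given. The gene's other probe sets were higher by 1.36 and 0.34. Within its list of 21 TGF-beta response genes, Pmepa1 and Spsb1 were called and both moved alike.

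Spsb1 encodes the substrate-binding part of a ubiquitin ligase of the SOCS-box family. It read 9.11, 8.65, 9.03 and 8.27 on the glia-primed arrays, 7.50, 7.29, 8.39 and 7.71 on the neuron-primed arrays and 6.38, 5.91, 7.31 and 6.15 on the mesenchyme-primed arrays, against 3.13, 5.10, 3.98 and 2.85 on the unprimed arrays. No primed array overlapped an unprimed one, with a mean change of 3.88 ± 0.36 (SE), adjusted p = 0.000185. Its changes were graded among the primed groups, 4.999 in the glia-primed, 3.96 in the neuron-primed and 2.67 in the mesenchyme-primed group, close to the lower bound of the rule. The difference between glia- and mesenchyme-primed arrays was 2.33 (95% interval 1.38 to 3.28), which passed limma's test (adjusted p = 0.0493), while the F test over the 3 primed groups gave an adjusted p of 0.0779. All 3 other probe sets of the gene were higher too, by 3.34, 2.30 and 1.21.

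Fst encodes follistatin, a secreted protein that binds activins and keeps them from their receptors. It read 7.27, 7.71, 7.34 and 6.99 on the glia-primed arrays, 6.08, 4.44, 7.61 and 5.93 on the neuron-primed arrays and 7.30, 6.63, 6.29 and 6.73 on the mesenchyme-primed arrays, against 3.89, 5.50, 3.44 and 4.998 on the unprimed arrays. Neuron-primed array 2 lay among the unprimed arrays, so the groups overlapped. The mean change was 2.24 ± 0.45 (SE), adjusted p = 0.0478, and the call was lost without any 1 of 13 of the 16 arrays. The other probe set of Fst was higher by 2.82.

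Among the remaining TGF-beta response genes 16 of 19 had a positive mean change and 0 passed limma's test. Over the whole list 8 of 21 had an unadjusted p under 0.05. Skil, a SMAD co-repressor, stood at 2.17 (adjusted p = 0.169), Ccn2, a matricellular protein, at 1.91 (adjusted p = 0.315) and Smad7, the inhibitory SMAD, at 0.73 (adjusted p = 0.335). The list's median was 0.64, or 0.70, 0.87 and 0.68 in the glia-, neuron- and mesenchyme-primed cells, against 0.01 over all genes.

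Sipa1l2 belongs to a family of proteins that switch off the GTPase Rap. It read 7.62, 8.46, 7.69 and 6.88 on the glia-primed arrays, 7.72, 8.66, 7.38 and 7.79 on the neuron-primed arrays and 7.34, 7.52, 7.26 and 8.07 on the mesenchyme-primed arrays, against 5.60, 4.58, 5.04 and 5.57 on the unprimed arrays. All primed arrays lay above all unprimed ones, with a mean change of 2.50 ± 0.29 (SE), adjusted p = 0.00155. The change was 2.46 in the glia-primed, 2.69 in the neuron-primed and 2.35 in the mesenchyme-primed group, and the largest gap between primed groups, neuron- over mesenchyme-primed, was 0.34 (95% interval -0.41 to 1.09). Rhob, a small GTPase of endosomes that governs actin, read 10.39 to 11.46 on the primed arrays, against 9.05 to 10.08 on the unprimed arrays, with a mean change of 1.55 ± 0.22 (SE), adjusted p = 0.00775. Its call was lost without unprimed array 4, with adjusted p = 0.0569. Enc1, an actin-binding kelch protein of early neural tissue, changed by 1.27 (adjusted p = 0.0339), and its ranges on the primed and unprimed arrays met at 10.48 and 10.47.

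Col2a1 encodes type II collagen, the main collagen of cartilage, which is also made around the embryonic neural tube and notochord. It read 10.65, 9.88, 11.08 and 9.61 on the glia-primed arrays, 9.84, 10.77, 10.84 and 11.10 on the neuron-primed arrays and 11.41, 10.27, 9.89 and 10.54 on the mesenchyme-primed arrays, against 8.60, 8.13, 7.56 and 8.53 on the unprimed arrays. The groups did not overlap, with a mean change of 2.29 ± 0.33 (SE), adjusted p = 0.00775, and it changed by 2.10 in the glia-primed, 2.43 in the neuron-primed and 2.32 in the mesenchyme-primed group. The other 12 genes of the cartilage and bone list did not pass the test, and its master regulator Sox9 stood at -0.92 (adjusted p = 0.345). Col1a2, a chain of type I collagen, ranged over 8.99 to 11.45 on the primed arrays, against 8.10 to 9.36 on the unprimed arrays, with a mean change of 1.79 ± 0.31 (SE), adjusted p = 0.0286. Neuron-primed array 1 lay inside its unprimed range, and the call was lost without unprimed array 1 (adjusted p = 0.111), 2 (0.069) or 4 (0.126). It was the only one of 31 extracellular matrix genes called, though 25 had a positive change and the median was 0.56. Its partner chain Col1a1 had a change of 3.77 (adjusted p = 0.101), and the matricellular proteins Postn and Thbs1 had changes of 2.85 (adjusted p = 0.0853) and 2.10 (adjusted p = 0.0748).

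Kitl, the ligand of the Kit receptor that guides pigment cell precursors and germ cells, changed by 2.58 ± 0.50 (SE), adjusted p = 0.0425. It ranged over 4.60 to 8.60 on the primed arrays, against 3.52 to 5.60 on the unprimed arrays, so the groups overlapped, and the call was lost without any 1 of 12 of the 16 arrays. The other probe sets of Kitl were higher in the mean by 1.75, 1.32 and 0.38. The last, at a mean level of 5.62 against 6.37 for the one used, did not move alike. It changed by 1.47 in the glia-primed, -0.26 in the neuron-primed and -0.06 in the mesenchyme-primed group. Lrig3, a membrane protein with leucine-rich and immunoglobulin repeats, was the most even member, at 2.04 in the glia-primed, 1.96 in the neuron-primed and 1.94 in the mesenchyme-primed group, and its call was lost without any 1 of 15 of the 16 arrays. Megf10, an engulfment receptor with EGF-like repeats, changed by 1.61 (adjusted p = 0.011) and did not overlap between groups. Coq8a, a mitochondrial kinase-like protein needed to make coenzyme Q, changed by 1.84 (adjusted p = 0.0342), while its other, dimmer probe set stood at 0.08. Endod1, a protein with a nuclease domain, changed by 2.18 (adjusted p = 0.0386), and Ak1, an adenylate kinase, by 1.50 (adjusted p = 0.0425). Endod1 and Ak1 were the 2 members whose unprimed mean lay below the array medians. Spaca6, known from the sperm surface, made the smallest rise at 0.90 (adjusted p = 0.0452).

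**Figure D3:**
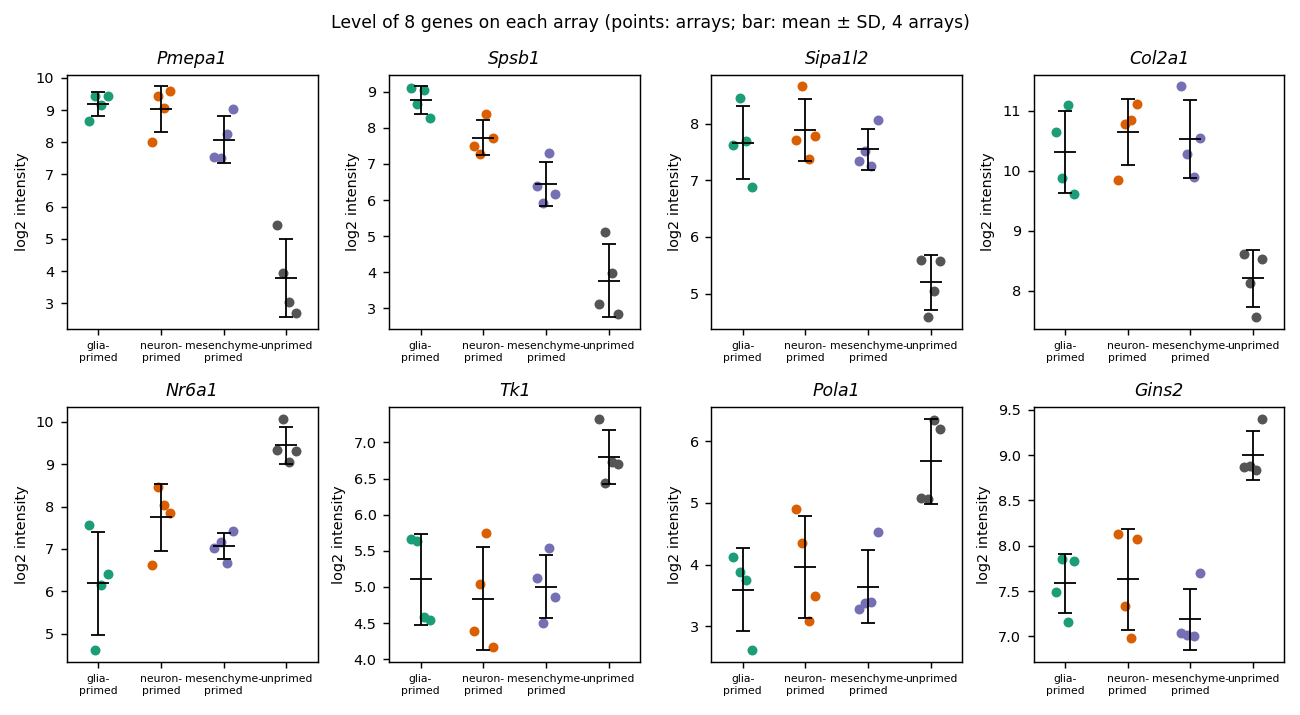
Log2 intensity of 4 genes that rose (top) and 4 that fell (bottom) on each array, in glia-, neuron- and mesenchyme-primed and unprimed cells. Points are arrays, and bars show the mean and SD of 4 arrays. For each of the 8 genes the 12 primed arrays lie on one side of the 4 unprimed arrays, as they were picked from the 34 members without overlap. The arrays of the other 14 members overlap.

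Of the shared falls, 3 were on the list of DNA replication genes. Tk1 encodes thymidine kinase, which supplies dTTP in S phase. It read 5.66, 5.63, 4.58 and 4.55 on the glia-primed arrays, 4.39, 5.04, 5.75 and 4.17 on the neuron-primed arrays and 5.12, 4.49, 5.54 and 4.86 on the mesenchyme-primed arrays, against 7.33, 6.44, 6.72 and 6.71 on the unprimed arrays. Every primed array lay below every unprimed array, and the mean change was -1.82 ± 0.30 (SE), adjusted p = 0.0227. The fall was even, -1.70 in the glia-primed, -1.96 in the neuron-primed and -1.80 in the mesenchyme-primed group, and the widest gap between primed groups, glia- over neuron-primed, was 0.27 (95% interval -0.53 to 1.06). Its call was lost without any one of the unprimed arrays, with adjusted p of 0.103, 0.0504, 0.0604 and 0.082 without arrays 1 to 4.

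Gins2 encodes a subunit of the GINS complex of the replicative helicase. It read 7.49, 7.86, 7.16 and 7.83 on the glia-primed arrays, 8.12, 7.34, 6.99 and 8.07 on the neuron-primed arrays and 7.04, 7.02, 7.01 and 7.70 on the mesenchyme-primed arrays, against 8.87, 8.88, 8.83 and 9.40 on the unprimed arrays. The groups did not overlap, with a mean change of -1.53 ± 0.22 (SE), adjusted p = 0.0084, and the change was -1.41 in the glia-primed, -1.36 in the neuron-primed and -1.81 in the mesenchyme-primed group. It was 1 of 3 members also called in mesenchyme-primed cells alone, and its other probe set was lower by 1.27. Without unprimed array 4 the adjusted p was 0.059.

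Pola1 encodes the catalytic subunit of DNA polymerase alpha, which starts each new strand together with primase. It read 4.12, 3.88, 3.75 and 2.62 on the glia-primed arrays, 4.91, 4.35, 3.09 and 3.49 on the neuron-primed arrays and 3.28, 3.38, 3.39 and 4.53 on the mesenchyme-primed arrays, against 5.09, 5.07, 6.34 and 6.20 on the unprimed arrays. The primed arrays lay below the unprimed ones, though by as little as 4.91 against 5.07, and the mean change was -1.94 ± 0.38 (SE), adjusted p = 0.0428. The call was lost without any 1 of 13 of the 16 arrays, and a second, dim probe set stood at 0.39. Pclaf, a partner of the sliding clamp PCNA that is not on the list, ranged over 6.51 to 8.03 on the primed arrays, against 8.19 to 8.75 on the unprimed arrays, with a mean change of -0.98 ± 0.18 (SE), adjusted p = 0.037.

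Of the 34 measured replication genes Tk1, Gins2 and Pola1 alone were called and 32 had a negative change and the median was -0.40, with -0.58 in the glia-primed, -0.44 in the neuron-primed and -0.26 in the mesenchyme-primed group. Pcna itself stood at -0.23 (adjusted p = 0.639) and Mcm7, of the helicase ring, at -0.64 (adjusted p = 0.206). Of 32 mitosis genes 0 passed limma's test and 4 had an unadjusted p under 0.05, with a median of -0.23, and Mki67, the standard mark of cycling cells, stood at -0.15 (adjusted p = 0.802). For comparison, the 13 housekeeping genes had a median of -0.22, with 12 negative. All genes above the median mean level had a median of -0.10. The part of scaling in the replication and mitosis medians was not tested. Smc3, a core subunit of the cohesin ring that holds sister chromatids together, fell by 1.22 (adjusted p = 0.0404).

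Nr6a1 encodes germ cell nuclear factor, an orphan nuclear receptor active in early embryos, where it shuts off pluripotency genes and helps to pattern the trunk. It read 7.57, 4.62, 6.14 and 6.42 on the glia-primed arrays, 6.63, 8.46, 8.04 and 7.84 on the neuron-primed arrays and 7.02, 7.16, 6.67 and 7.42 on the mesenchyme-primed arrays, against 9.33, 10.07, 9.04 and 9.32 on the unprimed arrays. No primed array reached the unprimed range, and the mean change was -2.44 ± 0.42 (SE), adjusted p = 0.0255. The fall was uneven, -3.25 in the glia-primed, -1.70 in the neuron-primed and -2.38 in the mesenchyme-primed group, and the glia-primed mean minus the neuron-primed mean was -1.56 (95% interval -2.65 to -0.47). Its call was lost without unprimed array 1 (adjusted p = 0.0775), 2 (0.095) or 4 (0.0838).

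Nkx1-2, a homeobox gene of the caudal progenitors that extend the body axis, read 3.07, 2.10, 1.89 and 2.00 on the glia-primed arrays, 3.52, 1.95, 3.37 and 1.75 on the neuron-primed arrays and 2.21, 2.21, 2.12 and 4.36 on the mesenchyme-primed arrays, against 6.62, 4.79, 4.03 and 5.20 on the unprimed arrays. Mesenchyme-primed array 4 lay inside the unprimed range, and the mean change was -2.61 ± 0.50 (SE), adjusted p = 0.0425. Neurog2, a proneural factor of sensory neuron precursors in the crest, read 3.76, 2.48, 2.32 and 3.12 on the glia-primed arrays, 3.93, 2.65, 2.49 and 2.47 on the neuron-primed arrays and 4.61, 2.25, 5.34 and 2.70 on the mesenchyme-primed arrays, against 6.20, 4.88, 5.90 and 6.48 on the unprimed arrays. Mesenchyme-primed array 3 lay inside the unprimed range, and the mean change was -2.69 ± 0.51 (SE), adjusted p = 0.0404. Sp5, a zinc finger factor and direct target of Wnt signalling, ranged over 2.14 to 2.94 on the primed arrays, against 2.79 to 3.94 on the unprimed arrays, with a mean change of -0.96 ± 0.19 (SE), adjusted p = 0.0455. Every primed array and the lowest unprimed array thus lay below the array medians of 3.05 to 3.15 for Sp5. Prtg, an immunoglobulin-superfamily receptor of the early neural plate and paraxial mesoderm, ranged over 7.65 to 8.61 on the primed arrays, against 8.86 to 9.70 on the unprimed arrays, with a mean change of -1.12 ± 0.18 (SE), adjusted p = 0.0207, and its other probe sets gave -1.12 and -1.22. The central nervous system progenitor markers moved the same way as these genes with all arrays in, 10 of 11 negative with a median of -0.56 as given above. Without unprimed array 4 that median was no longer negative, and the part of these markers in the falls was not tested.

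Few genes of the lists around them passed the test. Nr6a1 was the only called gene of 19 early progenitor genes, whose median was -0.13. Lin28a, an RNA-binding protein of early progenitors, stood at -1.53 (adjusted p = 0.181), Sox2 at -2.05 (adjusted p = 0.295) and Pou5f1, the pluripotency factor, at 0.06 (adjusted p = 0.935). Sp5 was the only called gene of 17 Wnt targets, whose median was 0.02, and Axin2, a feedback inhibitor of the pathway, stood at -1.20 (adjusted p = 0.244). The early progenitor median turned positive under housekeeping centring, and the Wnt target median turned negative under cyclic loess and median centring.

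Ldb2, a partner of LIM-homeodomain factors, had the largest fall of the 33, -2.88 ± 0.43 (SE), adjusted p = 0.0101, and ranged over 1.48 to 2.95 on the primed arrays, against 2.85 to 5.95 on the unprimed arrays. Unprimed array 2 lay low for this gene, within the primed range. That array and every primed array lay below the array medians of 3.05 to 3.15. The other probe sets of Ldb2, dim as well, stood at 0.26 and -1.44. The zinc finger genes Zfp729b and Zscan29 changed by -2.54 (adjusted p = 0.0305) and -1.62 (adjusted p = 0.0343). Atf7ip2, related to a partner of the methyltransferase SETDB1, changed by -1.71 (adjusted p = 0.00775) from an unprimed mean of 4.07, and both of its other probe sets moved the opposite way, by 0.14 and 1.00. Aff3, of the super elongation complex family, changed by -1.23 (adjusted p = 0.0485), Maz, a zinc finger factor that binds GC-rich promoters, by -0.79 (adjusted p = 0.0463) and Cabin1, an inhibitor of calcineurin that also works on histone H3.3, by -1.41 (adjusted p = 0.0364). Magel2, an imprinted gene whose protein works with ubiquitin ligases, changed by -1.08 (adjusted p = 0.0305).

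Srsf5, a splicing factor of the SR family, ranged over 6.80 to 8.10 on the primed arrays, against 8.62 to 9.19 on the unprimed arrays, with a mean change of -1.34 ± 0.21 (SE), adjusted p = 0.0174. Its call was lost without unprimed array 1 (adjusted p = 0.0709), 3 (0.0604) or 4 (0.082). Srrt, which joins the cap-binding complex to RNA processing, changed by -1.01 (adjusted p = 0.0476), Noc2l, a nucleolar protein of ribosome assembly, by -0.85 (adjusted p = 0.0297) and Zmat2, a spliceosome protein, by -0.73 (adjusted p = 0.037). Seh1l, a subunit of the nuclear pore, changed by -1.08 (adjusted p = 0.0364). None of these 5 genes overlapped between primed and unprimed arrays, though the ranges of Zmat2 met at 9.983 and 9.984. Over all genes this held for 0.583%, and members were chosen on this contrast, so nothing is read from it. The other, dimmer probe set of Noc2l stood at 0.14, while those of Zmat2 and Seh1l were lower in the mean.

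Utrn, the dystrophin relative utrophin, changed by -1.13 (adjusted p = 0.0452), Ppp1ca, a catalytic subunit of protein phosphatase 1, by -0.69 (adjusted p = 0.0404) and Arf3, a GTPase of the Golgi, by -0.98 (adjusted p = 0.0404). Pip4k2b, a phosphoinositide kinase, changed by -1.65 (adjusted p = 0.0455), Hccs, which attaches haem to cytochromes c, by -0.86 (adjusted p = 0.0455) and Ttc4, a co-chaperone, by -1.51 (adjusted p = 0.0452). The other probe sets of Utrn stood at 0.09 and -0.90, at mean levels of 8.34 and 6.28. For Hccs the other probe set stood at 0.40, at a mean level of 5.41. Commd4 changed by -1.08 (adjusted p = 0.0364), Jpt2 by -1.41 (adjusted p = 0.0364), Lrrc47 by -1.13 (adjusted p = 0.037) and Kis2, an RNA gene, by -1.27 (adjusted p = 0.0135). Kis2 was dim, at 1.57 to 2.57 on the primed and 2.77 to 3.895 on the unprimed arrays, with array medians of 3.05 to 3.15. Pola1, Hccs and Kis2 lie on the X chromosome, 3 of the 48 members, against 3.4% of all genes tested. With the Xist level as a covariate all 48 members kept their direction, for which they had been chosen on these arrays.

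Among themselves the 48 genes differed in which group moved most. The largest of the 3 changes lay in glia-primed cells for 23 genes, in neuron-primed cells for 17 and in mesenchyme-primed cells for 8, and the smallest lay in mesenchyme-primed cells for 26. The median rise was 2.05 in the glia-primed, 1.96 in the neuron-primed and 1.94 in the mesenchyme-primed group, and the median fall was -1.25, -1.33 and -1.16 in the same order. Set against the same unprimed arrays one group at a time, 26 of the 48 were called in glia-primed cells, 23 in neuron-primed and 3 in mesenchyme-primed cells. Over all genes those comparisons called 93 (0.511%), 79 (0.434%) and 4 (0.022%). The 3 in mesenchyme-primed cells were Pmepa1, Sipa1l2 and Gins2. The moderated F test among the 3 primed groups compares their means, with a spread estimated over all 16 arrays. It called 54 genes (0.297%) of all tested and 0 of the 48, of which 4 had an unadjusted p under 0.05, as had 7.91% of all genes. Pair by pair, glia- against neuron-primed arrays called 2 genes (0.011%), glia- against mesenchyme-primed 41 (0.225%) and neuron- against mesenchyme-primed 63 (0.346%), and of the 48 these were 0, 1 and 0, the one being Spsb1. The rule had already selected for similar changes. The members just inside the rule's ratio of 0.5 were Ak1 (0.517), Srrt (0.518) and Nr6a1 (0.522), and the called genes just outside it were Rassf4 (0.496), Lbr (0.487) and Nfkbia (0.487).

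**Figure D4:**
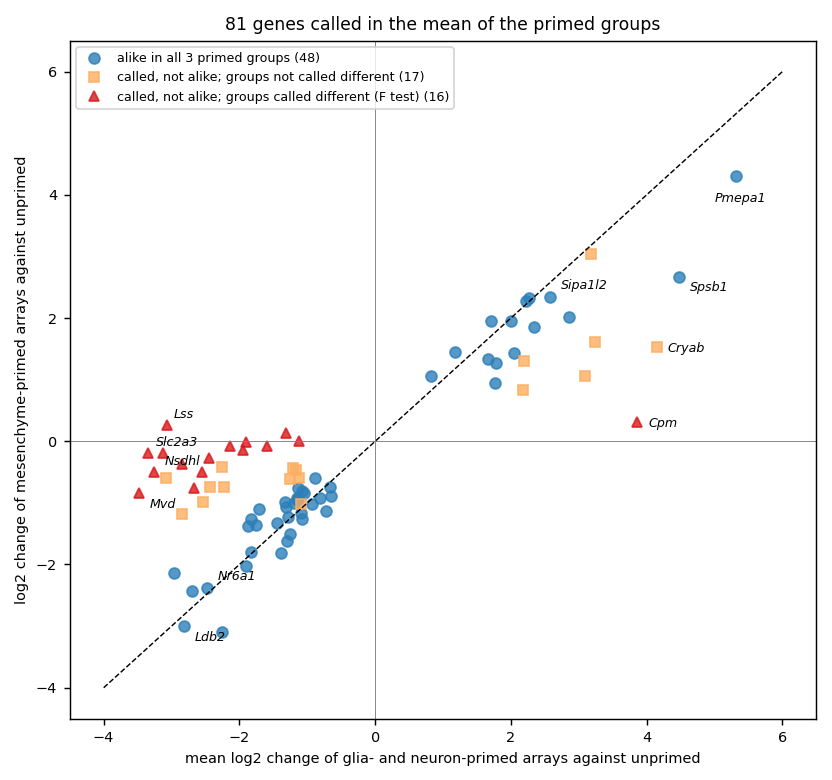
Log2 change of mesenchyme-primed arrays against the mean log2 change of glia- and neuron-primed arrays, both relative to unprimed arrays, for the 81 called genes. Blue circles are the 48 alike genes, near the dashed line of equal change. Orange squares and red triangles are the 33 others, 16 of which (triangles) the F test called different among the primed groups.

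The 33 called genes that did not move alike show what the rule removed. Their change was smallest in mesenchyme-primed cells for 31 of the 33, and the F test called 16 of them. Within all 81 called genes that is 19.8%, against 0.297% of all genes. The F test and the test that chose the 81 share one estimate of spread, so nothing is read from that difference. Of the 33, 11 belonged to the lists of sterol synthesis and sterol control. Mvd, a decarboxylase of the mevalonate pathway, had the smallest p of the whole comparison. It read 5.02, 5.22, 5.11 and 5.77 on the glia-primed arrays, 5.23, 5.22, 5.40 and 4.37 on the neuron-primed arrays and 7.44, 8.23, 7.65 and 7.89 on the mesenchyme-primed arrays, against 8.80, 8.56, 8.59 and 8.63 on the unprimed arrays. All primed arrays lay below the unprimed ones, with a mean change of -2.60 ± 0.20 (SE), adjusted p = 3.71e-05. The change was -3.37 in the glia-primed, -3.59 in the neuron-primed and -0.84 in the mesenchyme-primed group, and the F test gave an adjusted p of 0.000225. Nsdhl, a later sterol enzyme, changed by -3.30 in the glia-primed, -3.23 in the neuron-primed and -0.51 in the mesenchyme-primed group, and its mesenchyme-primed arrays overlapped the unprimed ones. Of 18 cholesterol synthesis genes 10 were called lower and 0 alike, with a median of -2.20 in the glia-primed, -1.80 in the neuron-primed and -0.20 in the mesenchyme-primed group. Cpm, a carboxypeptidase of the cell surface, changed by 3.92 in the glia-primed, 3.81 in the neuron-primed and 0.31 in the mesenchyme-primed group, with an F test adjusted p of 0.00103.

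Of the 33, 3 had changes of opposite sign, Lss, Tpi1 and Trim32, each slightly higher in mesenchyme-primed cells by 0.26, 0.14 and 0.003. Nfkbia, the inhibitor of NF-kappa-B, and Furin, a protease that activates precursor proteins, did not overlap between primed and unprimed arrays yet missed the ratio. Nfkbia changed by 1.70 in the glia-primed, 2.67 in the neuron-primed and 1.30 in the mesenchyme-primed group, and Furin by 2.19 in the glia-primed, 2.18 in the neuron-primed and 0.83 in the mesenchyme-primed group. Their F test adjusted p was 0.201 and 0.329, which does not show that the groups responded alike.

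**Figure D5:**
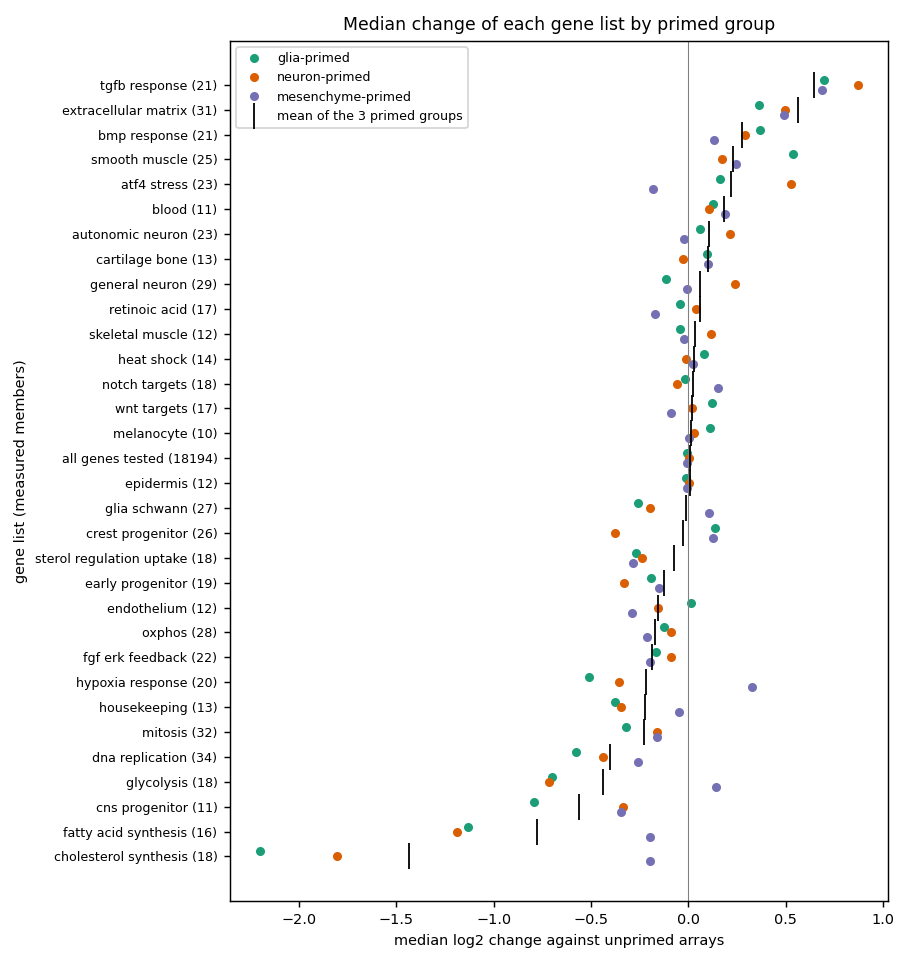
Median log2 change against unprimed arrays of each gene list in glia-primed (green), neuron-primed (orange) and mesenchyme-primed (purple) cells, with a black tick for the mean of the 3. The 3 groups lie together near 0.7 to 0.9 for the TGF-beta response genes and apart for cholesterol synthesis, at -2.20, -1.80 and -0.20.

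More than one probe set was present for 31 of the 48 members, 62 others in all. By the mean of the primed groups, 51 of these moved in the same direction as the one used and 11, in 10 genes, the opposite way, and 22 moved at least 2-fold in the same direction. The direction in each single group was not compared in these counts. The others were dimmer in the median, at a level of 4.35 against 7.18 for the probe sets used. The opposite ones of Utrn and Hccs, at 8.34 and 5.41, were nevertheless well above the array medians. Taking the median probe set of each gene in place of the brightest, 41 of the 48 members kept their direction in the mean and 35 in all 3 groups.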

How the data were processed

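RNA was labelled from 2 ug of total RNA and hybridised to 16 Affymetrix mouse arrays of one colour, per the labels. Deposited values were intensities of probe sets on a linear scale (1.49 to 31600). The authors made these intensity values with RMA, which corrects background, normalizes and summarises probes, per the submitters' processing notes, and the version is not given in the sources used here. RMA forces similar distributions on the arrays, so a change common to most genes cannot be seen. The values carry no detection calls, and 4 arrays in each group limit the precision.

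Log2 was taken with no offset. Of 45101 probe sets, 34958 had 1 gene symbol in the platform annotation, 932 had several and 9211 were not listed, and 99.4% of those with 1 symbol were updated through RefSeq. Each of 18194 genes is shown by the probe set with the highest mean, which for 9012 genes meant a choice. A group-means model was fitted to all 16 arrays (limma 3.58.1, R 4.3.3). The primed contrast was the mean of 3 group means minus the unprimed mean, two-sided, with Benjamini-Hochberg adjustment over all genes and a threshold of 0.05. A moderated F test compared the 3 primed groups. The fit was tested on simulated data.

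The 48 members and 31 gene lists were chosen with earlier results of these data known. All 48 members are named. Of the other called genes, those named are the threshold neighbours, up to 4 called genes of a list, and the 6 smallest F test p-values, with Sox10 and Yy1 always named. The remaining called genes that are named, and the list genes that did not pass the test, were picked after their values were seen. Alternatives covered scaling, the log offset, dim genes, the probe set, the variance model, control-probe ratios, Xist and each array left out. Dates and array batches were not used here.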

Additional observations from a re-analysis of the deposited data

Results flagged for a closer look

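Some arrays stood far from the other 3 of their group, by a gap wider, as a share of the group's range, than Dixon's critical value at the 95% level. Such a gap arises by chance in about 1 of 20 groups, and 27 were found in 340 groups tested, over the 81 called genes, Sox10, Yy1 and the control-probe ratios. Among the genes that rose, Col1a2 read 11.453 on mesenchyme-primed array 3, above the others at 10.303 to 10.444, and Rhob read 10.386 on the same array, below them. Kitl read 4.600 on that array too, below the others at 6.903 to 7.326, and 8.600 on neuron-primed array 4, above the others.

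Mesenchyme-primed array 4 stood above its group for 5 genes that fell. It read 7.696 for Gins2, 4.525 for Pola1, 8.027 for Pclaf, 4.364 for Nkx1-2 and 4.700 for Zscan29. Neuron-primed array 4 read 7.279 for Pclaf and 6.300 for Lrrc47, both below its group. Neurog2 read 3.931 on neuron-primed array 1 and Commd4 6.580 on neuron-primed array 2, both above their group. On the glia-primed arrays, Prtg read 8.133 on array 1 and Jpt2 7.206 on array 4, above the others, and Maz 7.031 on array 2, below them. On the unprimed arrays, Gins2 read 9.399 on array 4, and Arf3 and Hccs read 10.388 and 6.792 on array 2, all above the others.

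Outside the 48 genes, Rassf4 stood apart in 3 groups, at 4.048 on glia-primed array 1, 2.550 on neuron-primed array 4 and 2.551 on unprimed array 4. Idi1 read 10.244 on glia-primed array 1, Efnb2, an ephrin ligand, 8.873 on mesenchyme-primed array 1 and Trim32 8.406 on unprimed array 4. Sox10 read 4.301 on neuron-primed array 1, against 8.068 to 8.267 on the other neuron-primed arrays, and Yy1 read 8.779 on neuron-primed array 3.

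The change against unprimed cells differed among the primed groups, by limma's moderated F test, for 16 of the 81 called genes. The sterol genes among them had adjusted p of 0.000225 for Mvd, 0.00103 for Nsdhl, 0.00103 for Sqle, 0.00134 for Cyp51, 0.00467 for Idi1, 0.00557 for Lss, 0.0199 for Dhcr7 and 0.00324 for Insig1. The desaturase genes Scd1 and Scd2 had 0.0118 and 0.0131. Slc2a3, a glucose transporter, had 0.0143, Tpi1, a glycolytic enzyme, 0.00467, Idh1, a cytosolic isocitrate dehydrogenase, 0.00758, Rdh10, which makes retinaldehyde, 0.0056, Trim32, a ubiquitin ligase, 0.00758 and Cpm 0.00103. In each of these 16 genes the change was smallest in size in mesenchyme-primed cells.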

How the results depend on the processing

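As reported, 81 genes were called in the mean of the primed groups, 48 of them alike, and 54 among the primed groups. The replicate number as a block gave 39, 22 and 29. The numbers do not pair the arrays: deviations of same-numbered arrays correlated at -0.067 to 0.064 over 24 pairs, and others at -0.104 to 0.199. The median probe set gave 44 called and 27 alike, cyclic loess 43 and 27, and housekeeping centring 42 and 21 with 85 among the groups. Array weights gave 136, 73 and 82, and a test against a 1.2-fold change 18 and 9. As covariates, the Gapdh ratio gave 6 called and 3 alike, the beta-actin ratio 18 and 10, and the Xist level, chosen after seeing the data, 39 and 19. The Gapdh ratio itself differed between primed and unprimed arrays, so it and the priming can be told apart only in part. Leaving out single arrays gave 11 to 171 called, 5 to 77 alike and 28 to 108 among the groups. The last count was 28, 29 and 34 without mesenchyme-primed arrays 1, 2 and 3, and 108 without neuron-primed array 1. Of the 81 called genes, those that turned were Pola1 (0.392), Hccs (0.403), Ldb2 (0.259), Atf7ip2 (0.144), Noc2l (0.139), Nkx1-2 (0.095), Utrn (0.092) and Fads1 (0.141) with the median probe set, Atf7ip2 with an offset of 16 (0.466), and Arf3 (0.189) and Cryab (-0.081) without cross-matching probe sets. Another probe set then stands for the gene in each case, also with the offset, where the brightest probe set was chosen anew. Sox10, near 0, was -0.735 with the beta-actin covariate and -0.438 to 0.357 over single arrays left out, and Yy1 was 0.004, 0.035 and 0.103 under cyclic loess, housekeeping centring and the Gapdh covariate. The cause of the other changes was not tested. Other settings kept each count within 1.5 times.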

Other observations

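Gene lists not described above had few called genes. Of 28 respiratory chain and ATP synthase genes, which make most of the cell's ATP, 25 had a negative mean change, with a median of -0.17, and 0 passed limma's test, against 3 at an unadjusted p under 0.05. Centring on housekeeping genes turned that median to 0.01. Of 25 smooth muscle genes 20 had a positive change, with a median of 0.23, and 0 passed, against 7 at an unadjusted p under 0.05. Tagln, an actin-binding protein of smooth muscle, stood at 1.76 (adjusted p = 0.151). Of 21 genes that respond to bone morphogenetic proteins 16 had a positive change, with a median of 0.27, and 0 passed, against 5. Dlx2, a homeobox gene of the head crest, stood at 3.55 (adjusted p = 0.0626). Among 23 autonomic neuron genes 0 passed at either threshold. Gene names in this paragraph were picked after their values were seen.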
